A study of Mus musculus with 6 samples.

Results

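The BCL2 family sets the threshold at which a cell starts apoptosis from its mitochondria, and 10 of its genes were followed here in mouse myeloid progenitors with and without Dot1l. The genes were chosen by symbol and are Bcl2, Bcl2l1, Mcl1, Bcl2l11, Bax, Bak1, Bid, Bbc3, Pmaip1 and Bmf, 10 of the 31626 genes in each deposited table. Each symbol matched 1 row. Of the 10, 9 entered the fit across all genes, and Bak1 did not because its row held a placeholder value in Control replicate 2.

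The family has 3 roles. Pro-survival proteins (Bcl2, Bcl2l1, which is also called BCL-XL, and Mcl1) hold the outer mitochondrial membrane closed. Effectors (Bax and Bak1) open it, which releases cytochrome c and activates caspases. BH3-only proteins (Bcl2l11, also called BIM, Bid, Bbc3, also called PUMA, Pmaip1, also called NOXA, and Bmf) report stress by binding the pro-survival proteins or by activating the effectors. Myeloid progenitors and many myeloid leukaemias are known to depend on Mcl1 and Bcl2, and Bcl2 is high in stem and progenitor cells and low in mature granulocytes.

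The cells were common myeloid progenitors of C57Bl/6 mice, immature blood cells that form granulocytes, monocytes, erythroid cells and megakaryocytes. All libraries shared a Dot1l flox/flox genotype and transformation with the retrovirus MSCV-MN1-IRES-GFP, which carries the leukaemia oncogene MN1 and GFP, and all were grown in M3234 medium with FBS, IL3, IL6 and SCF. The 3 Dot1l-deleted libraries came from cells transduced with Cre (Dot1l -/-), and the 3 Control libraries from cells transduced with control, with RNA prepared from sorted cells at day 7 in both. DOT1L methylates lysine 79 of histone H3, and the series title places it with MLL1 and MN1 in acute myeloid leukaemia. No library had Cre with intact Dot1l, so effects of Cre and of the deletion cannot be told apart. Whether the replicates were separate cultures or animals is not in the labels. The p-values therefore reflect only how far these samples spread, and that spread may be technical.

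Values were FPKM (read fragments corrected for gene length and for the mapped fragments of the library), and 17379 to 18098 genes per library were above 0. FPKM gives no read counts; steps of single reads in low rows gave approximate depths of 0.739 to 1.0 relative to Control replicate 1. Dot1l itself was at 8.24, 8.17 and 5.80 FPKM in the Dot1l-deleted libraries, against 20.2, 22.6 and 19.6 FPKM in the Control libraries, which gave a log2 fold change of -1.39 with an SE of 0.157 and an adjusted p of 0.000124. A gene-level FPKM can include exons that Cre leaves in place. Dot1l-deleted replicate 3 stood apart. There, 38.8% of the summed FPKM fell on the 10 highest rows, against 6.55% to 10.7% in the other 5 libraries, and the median gene there was at 0.726 times the mean of the other 2 Dot1l-deleted libraries. The median over all 11924 tested genes was therefore computed in 3 ways. This median log2 fold change was -0.16 with the values as deposited, -0.02 after median-of-ratios scaling, which divides each library by 1 factor so that its typical gene matches the other libraries, and -0.03 without Dot1l-deleted replicate 3. Each of the 10 members is given as deposited and then as a scaled value.

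The promoters of Bcl2, the member that changed most, and of Mcl1, the most abundant pro-survival member, are shown to compare the start regions of a gene that fell and one that did not pass. Both are RefSeq sequences of build GRCm38.p6, 250 bases up to the transcription start, with CpG pairs in capitals. Bcl2 lies on the minus strand at chr1:106714291-106714540 and Mcl1 on the plus strand at chr3:95658471-95658720.
Bcl2: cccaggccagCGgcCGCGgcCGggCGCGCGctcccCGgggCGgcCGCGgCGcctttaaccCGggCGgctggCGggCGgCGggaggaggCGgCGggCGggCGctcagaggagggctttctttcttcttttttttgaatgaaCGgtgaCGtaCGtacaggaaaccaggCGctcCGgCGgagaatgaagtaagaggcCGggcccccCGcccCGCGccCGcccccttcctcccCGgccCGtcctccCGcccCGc
Mcl1: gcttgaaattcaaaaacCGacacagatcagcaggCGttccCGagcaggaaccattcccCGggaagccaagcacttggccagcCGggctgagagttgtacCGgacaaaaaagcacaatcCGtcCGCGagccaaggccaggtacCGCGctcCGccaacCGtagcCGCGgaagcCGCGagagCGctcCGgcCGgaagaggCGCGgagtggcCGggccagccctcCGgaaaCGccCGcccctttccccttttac
The Bcl2 window held 36 CpG pairs and a GC content of 74.8%, and the Mcl1 window 26 CpG pairs and 64.4% GC, against a median of 6 CpG pairs over 32851 windows of the same length, of which 92.1% held at least 1. Both starts were thus CpG-dense, and the window of the gene that fell was denser. RefSeq windows matched 9 of the 10 genes (all but Pmaip1), 16 windows in all, with 0 to 37 CpG pairs. The highest number, 37, was in a Bbc3 window, and the windows of Bcl2l11, which did not fall, held 24 and 30. Whether CpG density bears on the fall of Bcl2 was not tested. On either strand, the MYB core AACNG was in 1 place in the Bcl2 window and 2 places in the Mcl1 window, and it occurs in 74.2% of all windows. The forkhead (FOXO) motif TGTTTAC, in 3.17% of all windows, matched once in 1 of the Bcl2l11 windows and in 1 of the Bbc3 windows, and the HOX-MEIS motif TGATTNAT, in 2.82% of all windows, matched none of the 16. Matches of these motifs may share bases. These are matches of letters in the reference sequence, and no binding or histone mark was measured in these files.

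With the values as deposited, Bcl2 fell and no other member passed the test. Among the 9 tested members 0 were called higher and 1 lower at an adjusted p under 0.05, while 7.43% of all tested genes were called higher and 12.2% lower. With scaled values 2 members were called higher, Bcl2l11 and Bmf, and 2 lower, Bcl2 and Bbc3, while 21.2% of all tested genes were called higher and 24.7% lower. Without Dot1l-deleted replicate 3, Bmf was called higher and Bcl2 lower, against 17.1% and 21.1% of the genes tested in that fit. The median log2 fold change of the members was -0.15 as deposited and 0.01 scaled, close to the -0.16 and -0.02 of all tested genes.

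Among the pro-survival genes, Bcl2 transcripts were 3.54-fold lower in Dot1l-deleted cells. Bcl2 (ENSMUSG00000057329) was at 4.80, 4.37 and 3.56 FPKM in the Dot1l-deleted libraries, against 14.6, 15.4 and 15.02 FPKM in the Control libraries. The groups were far apart, with the highest Dot1l-deleted library at 4.80 FPKM and the lowest Control library at 14.6 FPKM. The means were 4.24 ± 0.627 FPKM in Dot1l-deleted and 15.01 ± 0.398 FPKM in Control libraries (SD, n = 3 each), and the log2 fold change came to -1.62 (SE 0.138, adjusted p = 1.62e-05). The scaled log2 fold change was -1.48 (SE 0.0542, adjusted p = 1.05e-05), and without Dot1l-deleted replicate 3 it was -1.52 (adjusted p = 9.59e-05). By exact permutation of the 6 libraries (two-sided) p was 0.1, which is the smallest value this design can give. Of the 11924 tested genes, 192 had a log2 fold change as low as that of Bcl2 or lower. Bcl2 overlaps the antisense gene D630008O14Rik in GENCODE M21, and Mir3473f and Gm37053 on its own strand. The sources used here do not say whether reads were counted by strand, and such counting would not separate the same-strand genes. In bulk RNA, fewer cells with Bcl2 and less Bcl2 RNA per cell cannot be told apart.

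Bcl2l1 (ENSMUSG00000007659), which encodes BCL-XL, was at 23.2, 20.9 and 18.7 FPKM in Dot1l-deleted libraries, against 24.5, 23.9 and 24.1 FPKM in Control libraries. The 3 Dot1l-deleted values lay below the 3 Control values as deposited, and the groups overlapped after scaling. The log2 fold change was -0.20 (SE 0.140, 95% interval -0.52 to 0.11, adjusted p = 0.339), with a scaled value of -0.05 (95% interval -0.23 to 0.13, adjusted p = 0.610).

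Mcl1 (ENSMUSG00000038612), a short-lived protein that myeloid cells need to survive, was at 66.0, 69.2 and 47.8 FPKM in Dot1l-deleted libraries, against 72.6, 69.1 and 73.8 FPKM in Control libraries. The second Dot1l-deleted library lay within the Control range and the third was the lowest of the 6. The log2 fold change came to -0.25 (SE 0.178, adjusted p = 0.359), and the scaled value was -0.09 with a 95% interval of -0.20 to 0.01 (adjusted p = 0.132). Neither Bcl2l1 nor Mcl1 passed, and the scaled intervals do not include a change as large as that of Bcl2.

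**Figure D1:**
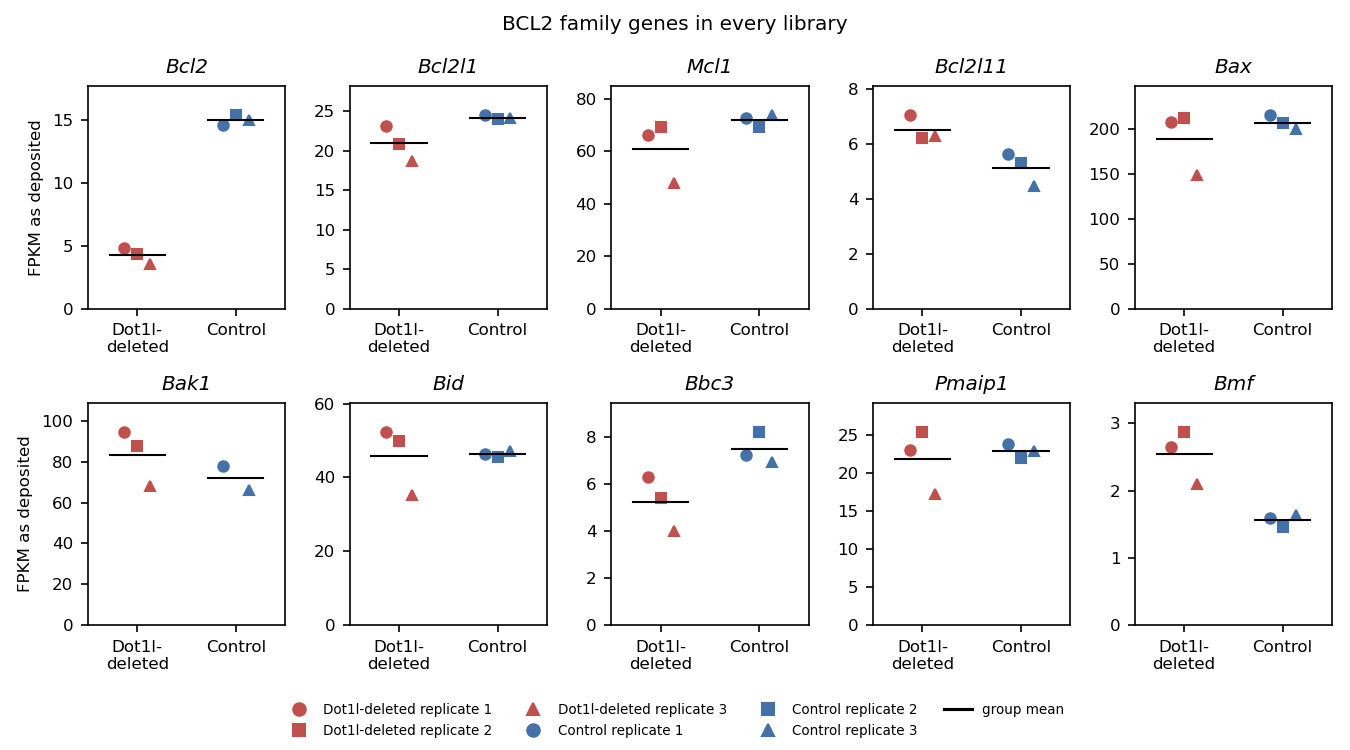
FPKM as deposited of the 10 BCL2 family genes (vertical axes, each starting at 0) in the 3 Dot1l-deleted and the 3 Control libraries; points are libraries and bars are group means. Bcl2 is at 4.80 FPKM or less in the Dot1l-deleted libraries and at 14.6 FPKM or more in the Control libraries, Dot1l-deleted replicate 3 is the lowest Dot1l-deleted point in 9 of the 10 panels, and Bak1 has no point for Control replicate 2.

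Bax was the most abundant member in each library, and neither effector gene passed as deposited. Bax (ENSMUSG00000003873), whose protein moves to mitochondria on activation, was at 207.9, 212.4 and 148.6 FPKM in Dot1l-deleted libraries, against 215.9, 206.9 and 199.8 FPKM in Control libraries. Its log2 fold change of -0.15 had an SE of 0.186 and an adjusted p of 0.614. The scaled value was 0.01 with a 95% interval of -0.08 to 0.10 (adjusted p = 0.807), and the groups overlapped on both scales.

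Bak1 (ENSMUSG00000057789), the effector resident on mitochondria, was at 94.8, 87.8 and 67.9 FPKM in Dot1l-deleted libraries, against 78.0 and 66.0 FPKM in Control replicates 1 and 3. With placeholders taken as missing, so that 3 and 2 libraries were compared, the log2 fold change came to 0.20 (SE 0.208, adjusted p = 0.532), and the exact two-sided permutation p was 0.4. In the same fit on scaled values, added after seeing the data, it was 0.36 (SE 0.0716, adjusted p = 0.0121), and 21.2% of the genes in that fit were called higher. Of the 3 settings that included Bak1, it was thus called on the scaled values only. Bak1 had no fit without Dot1l-deleted replicate 3. Bak1 overlaps Ggnbp1 on the opposite strand and Bid overlaps Bcl2l13 in the same way, so reads of these pairs may not be told apart either. Bax overlaps the protein-coding gene Gm45808 on the same strand, and Bid overlaps Gm44260 on the same strand. Counting by strand would not separate these pairs.

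Among the BH3-only genes, Bmf and Bcl2l11 lay higher and Bbc3 lower in all 3 Dot1l-deleted libraries than in any Control library, without passing as deposited. Groups that do not overlap were common, at 10.7% of tested genes in the higher and 34.1% in the lower direction as deposited, and 26.2% and 30.9% after scaling. As deposited, the members with such groups were Bcl2l11 and Bmf in the higher direction and Bcl2, Bcl2l1 and Bbc3 in the lower. After scaling they were Bcl2l11, Bak1, Bid and Bmf in the higher direction and Bcl2 and Bbc3 in the lower.

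Bmf (ENSMUSG00000040093), whose protein is held by the dynein light chain until stress frees it, was at 2.65, 2.88 and 2.10 FPKM in Dot1l-deleted libraries, against 1.59, 1.46 and 1.63 FPKM in Control libraries. The means differed 1.63-fold, at 2.54 ± 0.403 FPKM in Dot1l-deleted and 1.56 ± 0.0879 FPKM in Control libraries (SD, n = 3 each). The log2 fold change came to 0.46 (SE 0.169, adjusted p = 0.0838). The scaled value was 0.57 (SE 0.0801, adjusted p = 0.00208), and without Dot1l-deleted replicate 3 the log2 fold change was 0.56 (adjusted p = 0.00973). Bmf is the lowest member, where adding 1 to each FPKM shortens the fold change most.

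Bcl2l11 (ENSMUSG00000027381), which encodes BIM, an activator that binds all pro-survival proteins, was at 7.04, 6.20 and 6.28 FPKM in Dot1l-deleted libraries, against 5.62, 5.30 and 4.46 FPKM in Control libraries. It was the member least lowered in Dot1l-deleted replicate 3, at 0.949 times the mean of the other 2 Dot1l-deleted libraries, where the median gene was at 0.726 times. The log2 fold change came to 0.30 (SE 0.139, adjusted p = 0.173), the scaled value 0.43 (SE 0.123, adjusted p = 0.0302), and the value without Dot1l-deleted replicate 3 was 0.32 (adjusted p = 0.0740).

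Bbc3 (ENSMUSG00000002083), the p53 target that encodes PUMA, was at 6.30, 5.41 and 4.01 FPKM in Dot1l-deleted libraries, against 7.24, 8.22 and 6.93 FPKM in Control libraries. The log2 fold change came to -0.45 (SE 0.164, adjusted p = 0.0815), and the scaled value was -0.32 (SE 0.0796, adjusted p = 0.0193). The call also appeared without Dot1l-deleted replicate 1, at a log2 fold change of -0.57 (adjusted p = 0.0418), but not without Dot1l-deleted replicate 3, at -0.30 (adjusted p = 0.0622). Bbc3 thus lay in the direction opposite to Bmf and Bcl2l11, with a call that depended on scaling or on which library was used.

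Bid (ENSMUSG00000004446), which links death receptors to mitochondria once cut by caspase 8, was at 52.4, 49.9 and 35.2 FPKM in Dot1l-deleted libraries, against 46.4, 45.6 and 47.3 FPKM in Control libraries. Its log2 fold change was -0.04 (SE 0.179, adjusted p = 0.902), and the scaled value had the other sign, at 0.12 (SE 0.0406, adjusted p = 0.0561). Pmaip1 (ENSMUSG00000024521), which encodes NOXA, a partner of Mcl1, was at 23.0, 25.5 and 17.2 FPKM in Dot1l-deleted libraries, against 23.8, 22.0 and 23.0 FPKM in Control libraries. Its log2 fold change was -0.08 (SE 0.166, adjusted p = 0.767), and the scaled value was 0.07 with a 95% interval of -0.05 to 0.20 (adjusted p = 0.303). In both genes the third Dot1l-deleted library was the lowest of the 6.

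**Figure D2:**
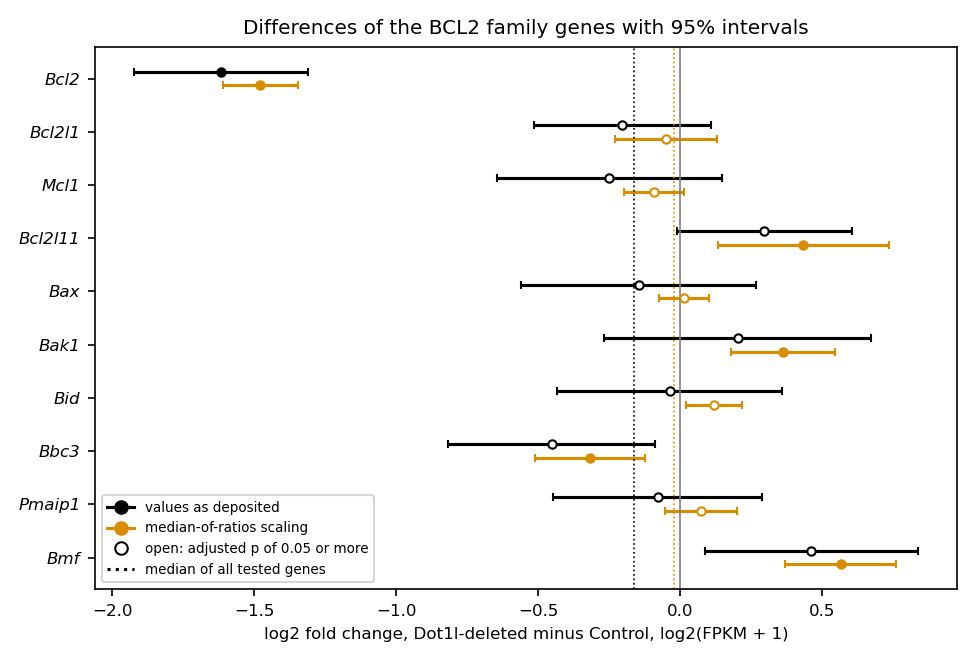
Log2 fold change, Dot1l-deleted minus Control on log2(FPKM + 1), of the 10 BCL2 family genes with 95% intervals, as deposited (black) and after median-of-ratios scaling (orange); filled points have an adjusted p under 0.05, dotted lines mark the median of all tested genes, and Bak1 is from the fit with placeholders as missing. As deposited, Bcl2 at -1.62 is the only filled point, and after scaling Bcl2l11, Bak1 and Bmf are filled to the right of 0 and Bcl2 and Bbc3 to the left.

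Ratios between members within a library need no scaling, since any factor of the library cancels. They are given as a description, without a test. The ratio of Bcl2 to Mcl1 FPKM was 0.0727, 0.0631 and 0.0745 in Dot1l-deleted libraries, against 0.201, 0.223 and 0.204 in Control libraries. Bcl2 to Bcl2l1 was 0.207, 0.209 and 0.190 in Dot1l-deleted libraries, against 0.596, 0.643 and 0.624 in Control libraries. Bcl2 was thus 2.98-fold lower relative to Mcl1 and 3.07-fold lower relative to Bcl2l1, and Dot1l-deleted replicate 3 lay with the other 2 Dot1l-deleted libraries in both ratios. Bcl2l1 to Mcl1 was 0.351, 0.302 and 0.392 in Dot1l-deleted libraries, against 0.337, 0.346 and 0.326 in Control libraries, which overlap.

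Against its BH3-only partner Bcl2l11, Bcl2 was 4.54-fold lower, with FPKM ratios of 0.682, 0.705 and 0.568 in Dot1l-deleted libraries, against 2.60, 2.91 and 3.37 in Control libraries. Bcl2 transcripts outnumbered those of Bcl2l11 per length in each Control library and in no Dot1l-deleted library. Mcl1 to Bcl2l11 was 9.38, 11.2 and 7.62 in Dot1l-deleted libraries, against 12.9, 13.0 and 16.6 in Control libraries, and Mcl1 to Pmaip1 was 2.87, 2.71 and 2.78 in Dot1l-deleted libraries, against 3.05, 3.14 and 3.21 in Control libraries. The difference in Mcl1 to Pmaip1 was 1.12-fold, and the ranges of the groups did not overlap. Such ranges are common: after scaling, single genes had them at 26.2% of tested genes in the higher and 30.9% in the lower direction. The share among ratios of other gene pairs was not computed. Neither Mcl1 nor Pmaip1 passed on its own. Bax to Bak1 was 2.19, 2.42 and 2.19 in Dot1l-deleted libraries, against 2.77 and 3.03 in the Control libraries with both values, and Bcl2l11 to Bmf overlapped between groups.

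**Figure D3:**
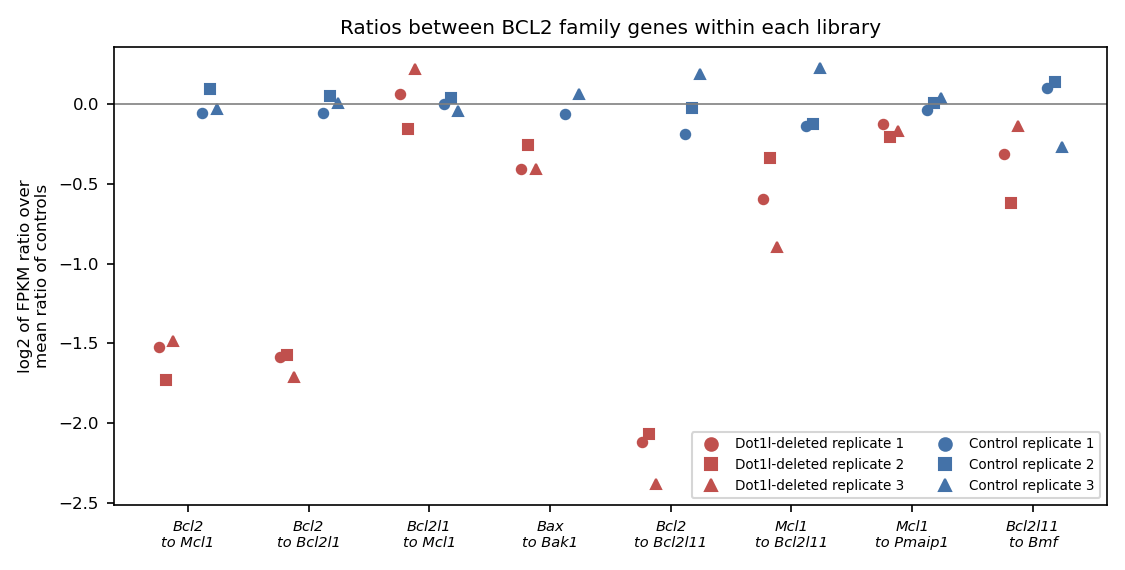
Log2 of 8 FPKM ratios between BCL2 family genes in each library, relative to the mean ratio of the Control libraries (0 on the vertical axis), Dot1l-deleted points left of Control points for each ratio. The ratios with Bcl2 on top lie lowest in the Dot1l-deleted libraries, from 2.98-fold to 4.54-fold below Control, while Bcl2l1 to Mcl1 overlaps 0.

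Summed over a role, Bcl2 was a small part of the pro-survival RNA and became smaller. Over Bcl2, Bcl2l1, Mcl1, Bcl2l2 and the Bcl2a1 genes, Bcl2 made up 4.47%, 4.05% and 4.42% of the summed FPKM in Dot1l-deleted libraries, against 11.8%, 12.8% and 12.1% in Control libraries. Mcl1 held 61.6%, 64.1% and 59.4% of it in Dot1l-deleted libraries, against 58.7%, 57.5% and 59.5% in Control libraries. The summed pro-survival FPKM was 107.3, 107.9 and 80.6 in Dot1l-deleted libraries, against 123.6, 120.3 and 124.1 in Control libraries. The summed BH3-only FPKM was 131.9, 137.4 and 93.3 in Dot1l-deleted libraries, against 126.5, 120.1 and 120.2 in Control libraries, which overlap. Both sums use the values as deposited. The overlap came from Dot1l-deleted replicate 3, the lowest library, while the remaining Dot1l-deleted libraries lay above each Control library. The ratio of the BH3-only to the pro-survival sum was 1.23, 1.27 and 1.16 in Dot1l-deleted libraries, against 1.02, 0.998 and 0.968 in Control libraries. These sums rest on RNA levels, with no weight for how strongly the proteins bind, and Bid and Bad make up most of the BH3-only sum. The Bcl2a1 part of the pro-survival sum is uncertain, since these genes are near-identical copies.

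The order of mean levels was headed by Bax, Bak1, Mcl1 and Bid in both groups, at 189.6, 83.5, 61.0 and 45.8 FPKM in Dot1l-deleted libraries and 207.5, 72.0, 71.8 and 46.4 FPKM in Control libraries. In Dot1l-deleted libraries the lower ranks were Pmaip1, Bcl2l1, Bcl2l11, Bbc3, Bcl2 and Bmf, and in Control libraries Bcl2l1, Pmaip1, Bcl2, Bbc3, Bcl2l11 and Bmf. Bcl2 was 9th of 10 in Dot1l-deleted libraries and 7th in Control libraries. Ranges of neighbours overlapped for Bak1 with Mcl1, Mcl1 with Bid, Pmaip1 with Bcl2l1, Bcl2l11 with Bbc3 and Bbc3 with Bcl2 in Dot1l-deleted libraries, and for Bak1 with Mcl1 in Control libraries. These ranges run across libraries, and Dot1l-deleted replicate 3 lay low for most genes. Within each Dot1l-deleted library Bak1 was above Mcl1, Mcl1 above Bid, Bcl2l11 above Bbc3 and Bbc3 above Bcl2. Only the order of Pmaip1 and Bcl2l1 differed between the Dot1l-deleted libraries. The Control mean of Bak1 rests on 2 libraries, and in Control replicate 3 Mcl1, at 73.8 FPKM, was above Bak1, at 66.0 FPKM.

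Of the other family genes, Bcl2l14 rose and Bnip3 fell as deposited. Bcl2l14, which encodes the BH3-containing protein BCL-G, was at 4.08, 3.76 and 2.88 FPKM in Dot1l-deleted libraries, against 1.47, 1.67 and 1.28 FPKM in Control libraries (log2 fold change 0.88, SE 0.172, adjusted p = 0.00464). Bnip3, a mitophagy receptor that hypoxia induces, was at 8.23, 11.3 and 6.60 FPKM in Dot1l-deleted libraries, against 19.5, 11.6 and 15.9 FPKM in Control libraries (log2 fold change -0.78, SE 0.217, adjusted p = 0.0298). The Bnip3 call was lost without Dot1l-deleted replicate 1, Dot1l-deleted replicate 3 or Control replicate 1, at adjusted p-values of 0.0514 to 0.0981, and with no filter, at 0.111. Its relative Bnip3l had a log2 fold change of -0.51 (adjusted p = 0.0514), and Bcl2l13 of -0.38 (adjusted p = 0.114), while Bcl2l12 and Becn1 had adjusted p-values of 0.309 and 0.778. Bnip3l and Bcl2l13 were called lower after scaling, at -0.36 (adjusted p = 0.0161) and -0.23 (adjusted p = 0.00279). Both calls also appeared without Dot1l-deleted replicate 3 (adjusted p = 0.0337 and 0.0111).

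The fourth pro-survival gene of these cells, Bcl2l2 (BCL-W), was at 11.8, 12.0 and 9.50 FPKM in Dot1l-deleted libraries, against 11.8, 11.5 and 11.1 FPKM in Control libraries (adjusted p = 0.820). The BH3-only genes Bad, which growth factor signalling keeps inactive, and Bik had adjusted p-values of 0.900 and 0.376. Bik reached a scaled log2 fold change of 0.34 (adjusted p = 0.0333).

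Bok, Hrk, Bcl2l10, Bcl2l15 and the Bcl2a1 genes were below the filter of a mean of 1 FPKM. Bcl2a1a, a pro-survival gene known from mature granulocytes, was at 0.643, 0.497 and 0.420 FPKM in Dot1l-deleted libraries, against 0.0525, 0.0615 and 0.133 FPKM in Control libraries. Bcl2a1b was at 0.760, 0.994 and 0.481 FPKM in Dot1l-deleted libraries, against 0.246 FPKM in Control replicate 2 and 0 in the other 2 Control libraries. Both were higher in each Dot1l-deleted library than in any Control library, with listed values below that of Bcl2 in every library. The Bcl2a1 genes are near-identical copies, so the split of reads between them and their level against Bcl2 are uncertain. Bcl2a1c was listed at 0 in all 6 libraries. Bcl2l15 was at 0.568, 0.446 and 0.517 FPKM in Dot1l-deleted libraries, against 0.165, 0.157 and 0.121 FPKM in Control libraries.

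The genes around the family were read from 10 lists of 102 genes, of which 89 were tested. As deposited 4 of the 89 were called higher and 14 lower, with a median log2 fold change of -0.19, beside -0.16 for all tested genes. After scaling 19 were called higher and 28 lower (median -0.03), and without Dot1l-deleted replicate 3 16 higher and 19 lower (median -0.03). Over all tested genes, 7.43% were called higher and 12.2% lower as deposited, 21.2% and 24.7% after scaling, and 17.1% and 21.1% without Dot1l-deleted replicate 3. The 4 genes called higher and the 14 called lower as deposited all kept their call and direction after scaling, and the counts of each list below are to be set against these shares.

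In the death receptor list of 10 tested genes, 2 rose and 1 fell as deposited, with a list median of 0.13. After scaling 6 were called higher and 1 lower, and without Dot1l-deleted replicate 3 5 higher and 1 lower. Tnfrsf1a, the TNF receptor 1, was at 64.4, 64.8 and 52.2 FPKM in Dot1l-deleted libraries, against 26.5, 25.6 and 21.6 FPKM in Control libraries (log2 fold change 1.26, SE 0.161, adjusted p = 0.000290). Fas, the receptor of FAS ligand, was at 5.59, 6.75 and 5.17 FPKM in Dot1l-deleted libraries, against 2.61, 2.54 and 2.17 FPKM in Control libraries (log2 fold change 0.99, SE 0.152, adjusted p = 0.00103). Tnfsf10, which encodes the ligand TRAIL, averaged 1.02 ± 0.234 FPKM in Dot1l-deleted and 2.55 ± 0.184 FPKM in Control libraries (SD, n = 3 each; adjusted p = 0.00843). Bid, the family member that these receptors act through, did not pass.

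Downstream of the mitochondria, 1 of 8 tested mitochondrial and apoptosome genes fell and none rose, and 1 of 6 caspase genes fell and none rose. After scaling, and also without Dot1l-deleted replicate 3, each of these lists had 2 called higher and 2 lower. The one in the first list was Diablo, which encodes the IAP antagonist SMAC, at 39.8, 39.5 and 26.3 FPKM in Dot1l-deleted libraries, against 55.5, 52.9 and 58.4 FPKM in Control libraries (log2 fold change -0.67, adjusted p = 0.0294). The caspase was Casp6, an executioner caspase, with 12.0 ± 3.18 FPKM in Dot1l-deleted and 20.2 ± 0.751 FPKM in Control libraries (SD, n = 3 each; adjusted p = 0.0176), a call that was lost with no filter on low values (adjusted p = 0.0648). Apaf1 and Casp9, which form the apoptosome, had log2 fold changes of 0.13 (adjusted p = 0.574) and 0.24 (adjusted p = 0.358), and scaled values of 0.29 (adjusted p = 0.00204) and 0.39 (adjusted p = 0.00381). Cycs, the cytochrome c gene that every cell uses and that has near-identical copies, was listed at 0 to 0.398 FPKM, so its row does not give its level.

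Of 8 tested IAP genes, a family that includes caspase inhibitors, 1 rose and none fell, against 2 called higher and 1 lower after scaling and 2 and 0 without Dot1l-deleted replicate 3. The one that rose was Naip2, a family member known as a sensor of bacterial proteins, at 12.0, 13.4 and 9.71 FPKM in Dot1l-deleted libraries, against 7.68, 7.78 and 7.68 FPKM in Control libraries (log2 fold change 0.53, adjusted p = 0.0259). Xiap, the direct caspase inhibitor, had an adjusted p of 0.618. The Naip2 call was lost without any 1 of the Control libraries or without Dot1l-deleted replicate 1 or 2, at adjusted p-values of 0.0633 to 0.0984, and that of Diablo without any 1 of the Control libraries, at 0.0580 to 0.0961. With no filter Naip2 and Diablo had adjusted p-values of 0.0562 and 0.0627.

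Of 15 p53 pathway genes 3 fell and none rose as deposited. After scaling 2 were called higher and 4 lower, and without Dot1l-deleted replicate 3 2 higher and 3 lower. Sesn1, a stress-response target, was at 13.0, 11.9 and 8.94 FPKM in Dot1l-deleted libraries, against 22.5, 24.6 and 24.1 FPKM in Control libraries (log2 fold change -1.02, adjusted p = 0.00106). Zmat3 and Phlda3 fell by 0.77 and 0.81 on the log2 scale (adjusted p = 0.00333 and 0.0127), and Phlda3 lost its call with no filter (adjusted p = 0.0599). Plk2 and Trp53inp1, p53 targets named after their values were seen, lay in the other direction, with log2 fold changes of 0.60 (adjusted p = 0.0504) and 0.31 (adjusted p = 0.136) and scaled values of 0.68 (adjusted p = 0.00420) and 0.45 (adjusted p = 0.00566). Trp53 itself was at 126.9, 128.0 and 94.4 FPKM in Dot1l-deleted libraries, against 132.4, 144.6 and 128.8 FPKM in Control libraries (adjusted p = 0.402). The p53 targets inside the BCL2 family, Bbc3, Pmaip1 and Bax, had log2 fold changes of -0.45, -0.08 and -0.15 as deposited, and none passed.

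Of 17 transcription factor genes that are known to act on family members, 4 fell and none rose. Stat5a and Stat5b, which carry cytokine signals to Bcl2l1 and Mcl1, were at 14.3 ± 1.94 and 12.2 ± 2.77 FPKM in Dot1l-deleted libraries, against 26.5 ± 1.07 and 22.6 ± 1.06 FPKM in Control libraries (SD, n = 3 each; adjusted p = 0.00215 and 0.00564). Runx1 and Ddit3 (CHOP) fell by 0.66 and 0.58 on the log2 scale (adjusted p = 0.0121 and 0.0393). Runx1 lost its call without Control replicate 2 (adjusted p = 0.0709) and Ddit3 without any 1 of the Control libraries (0.0574 to 0.140) and with no filter (0.0856). Foxo3, known to activate Bcl2l11 and Bbc3, had a log2 fold change of -0.41 (adjusted p = 0.0998) and a scaled value of -0.26 (adjusted p = 0.0259). After scaling 11 of the 17 were called lower, against 6 without Dot1l-deleted replicate 3 and 7 with both changes, and none higher after scaling or without that library.

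Of 16 genes whose products act on family proteins, 3 fell and none rose, against 3 called higher and 4 lower after scaling and 2 and 3 without Dot1l-deleted replicate 3. Mapk8, the JNK1 kinase that phosphorylates BIM and BMF, was at 13.2, 12.7 and 9.36 FPKM in Dot1l-deleted libraries, against 21.2, 20.6 and 20.2 FPKM in Control libraries (log2 fold change -0.78, adjusted p = 0.00496). The kinases Pim1 and Pim3, which phosphorylate BAD, fell by 0.52 and 0.59 on the log2 scale (adjusted p = 0.0330 and 0.0185). Pim1 lost its call without any 1 of 5 libraries (0.0561 to 0.18), all but Dot1l-deleted replicate 3, and Pim3 without Control replicate 1 or 2 (0.0626 and 0.0780) and with no filter (0.0553). Huwe1 and Usp9x, the ubiquitin ligase and the deubiquitinase of MCL1, had adjusted p-values of 0.182 and 0.749. Dynll1 and Dynll2, the dynein light chains that hold BIM and BMF, had 0.918 and 0.197, with a scaled log2 fold change of -0.23 for Dynll2 (adjusted p = 0.0258).

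**Figure D4:**
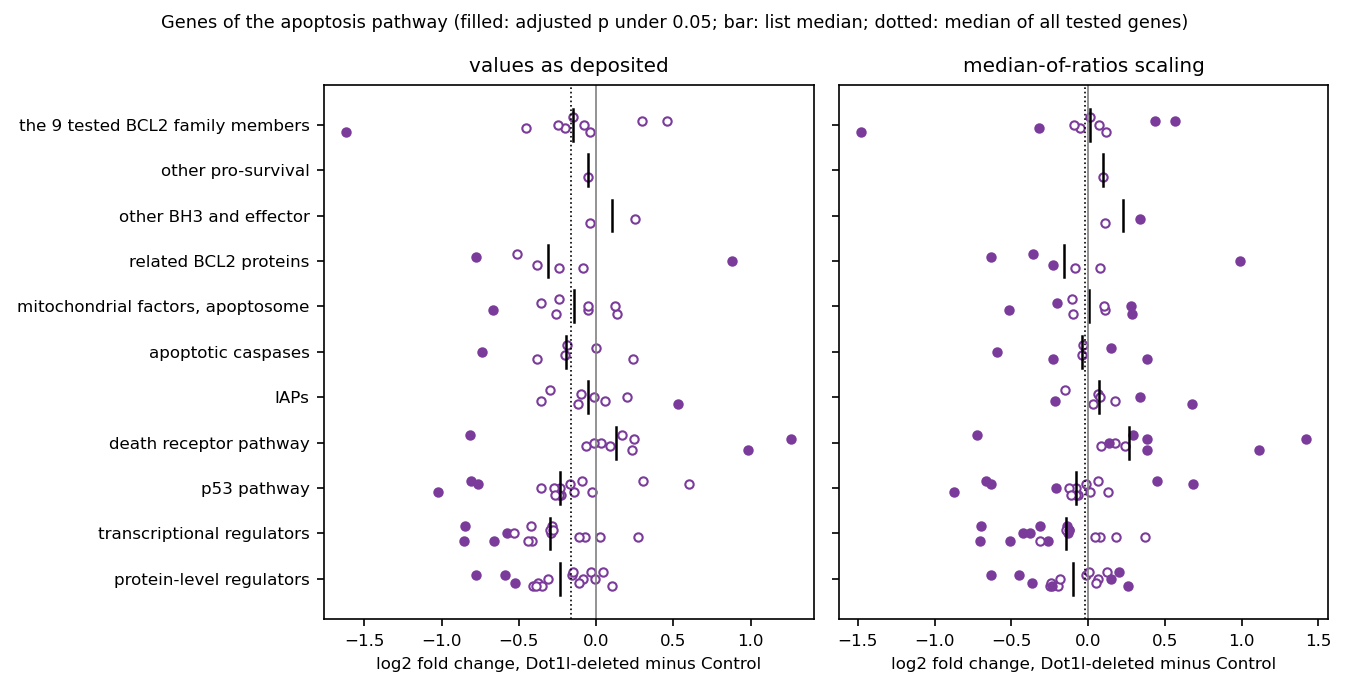
Log2 fold change, Dot1l-deleted minus Control, of the tested BCL2 family genes and of the genes of 10 apoptosis lists, as deposited (left panel) and after median-of-ratios scaling (right panel); each point is a gene, filled at an adjusted p under 0.05, the bars are list medians and the dotted line is the median of all tested genes. Bcl2 at -1.62 is the lowest point of the left panel and Tnfrsf1a at 1.26 the highest.

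The tested genes nearest to Bcl2 in pattern were Npl, Plek, Ppm1e, Igf2r and Gpr133, by the root mean square distance between log2(FPKM + 1) profiles over the 6 libraries, each centred on its own mean. The distances were 0.0224 for Npl to 0.0502 for Gpr133. Npl, a lyase gene of sialic acid breakdown, was at 22.0, 21.02 and 17.7 FPKM in Dot1l-deleted libraries, against 63.7, 65.0 and 64.9 FPKM in Control libraries. The nearest other tested BCL2 family member was Bbc3, at a distance of 0.587 and rank 1769, and Bak1 had no distance. With 2 groups this distance mostly follows the size of the fold change, so it adds little to the fold changes given above.

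Markers of blood cell types moved with the groups. Kit and Cd34, which mark progenitors, were present in all libraries and lower after deletion, at 66.8, 61.7 and 44.1 FPKM for Kit in Dot1l-deleted libraries, against 116.2, 124.8 and 111.4 FPKM in Control libraries. Of the 10 myeloid progenitor markers 4 rose (Mpo, Elane, Fcgr3 and Spi1) and 2 fell (Kit and Cd34) as deposited. Mpo averaged 2319 FPKM in Dot1l-deleted and 572 FPKM in Control libraries. After scaling, and also without Dot1l-deleted replicate 3, 5 were called higher and 3 lower. The 10 markers had sums of 4289 to 6323 FPKM in Dot1l-deleted and 2855 to 3164 FPKM in Control libraries. All 12 tested of 14 neutrophil maturation markers rose, with sums of 20670 to 24510 FPKM in Dot1l-deleted and 1002 to 1234 FPKM in Control libraries. Of 7 tested monocyte and macrophage markers 4 rose and 1 fell as deposited, with sums of 453.1 to 528.1 FPKM in Dot1l-deleted and 134.3 to 151.0 FPKM in Control libraries. Scaling gave 6 higher and 1 lower, as did leaving out Dot1l-deleted replicate 3. Of 5 tested mast cell and basophil markers none rose and 3 fell as deposited, with sums of 1567 to 2263 FPKM in Dot1l-deleted and 2479 to 2730 FPKM in Control libraries. Scaling gave 1 higher (Mcpt8) and 3 lower, as did leaving out Dot1l-deleted replicate 3. Of 6 erythroid markers 2 rose and 3 fell, with sums of 41.8 to 53.8 FPKM in Dot1l-deleted and 64.2 to 69.0 FPKM in Control libraries. Of 3 tested megakaryocyte markers 1 rose and 1 fell, with sums of 64.0 to 84.5 FPKM in Dot1l-deleted and 114.9 to 122.4 FPKM in Control libraries. The 8 lymphoid markers were all below 1 FPKM, 4 of them listed at 0 in all libraries, and summed to 0.179 to 0.302 FPKM in Dot1l-deleted and 0.0992 to 0.263 FPKM in Control libraries. The 4 stromal and endothelial markers summed to 1.796 to 2.44 FPKM in Dot1l-deleted and 2.81 to 3.79 FPKM in Control libraries, and the 1 that was tested did not pass. The part of these cell-type differences in the fall of Bcl2 and in the values of the other members was not tested.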

How the data were processed

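RNA of 3 Dot1l-deleted and 3 Control libraries was analysed from FPKM values, which the authors deposited as 1 table per library. The tools named, per the submitters' processing notes, are Cuffdiff, GSNAP, SAMtools and CASAVA 1.8.2, on build mm9, with neither role nor order. A placeholder value stood in 304 to 318 genes per library. The main fit left out the 378 genes that held it anywhere, and FPKM gives no read counts.

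Genes averaging 1 FPKM or more over the 6 libraries, 11924 in all, were tested with limma 3.58.1 (R 4.3.3, variance trend) on log2(FPKM + 1), Dot1l-deleted minus Control. This scale understates the change of low genes. Tests were two-sided with Benjamini-Hochberg adjustment over all tested genes, and a gene was called at an adjusted p under 0.05. Intervals are 95% and unadjusted. Scaled values were divided by median-of-ratios factors, 0.763 for Dot1l-deleted replicate 3 and 1.04 to 1.07 for the others. Other folds divide mean FPKM values.

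The 172 list entries, the 10 members among them, all matched, 4 of them by identifier, and were chosen with earlier results of these data known. Named genes were the members, the other family genes, up to 4 called genes per list with the smallest adjusted p, 11 fixed pathway genes, 1 of which is not reported here, and the 5 tested genes nearest Bcl2, with predicted genes passed over. Alternatives covered the pseudocount, filter, scaling, variance model, library weights, a replicate block, placeholders as missing and each library left out. Promoter windows came from RefSeq (GRCm38.p6), not the build of the files.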

Additional observations from a re-analysis of the deposited data

How the results depend on the processing

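Bcl2 was called lower in 21 of 21 settings, with log2 fold changes of -1.81 to -1.12 and adjusted p-values of 2.2e-18 to 0.00116. Mcl1, Bax, Bid and Pmaip1 were called in 0 of 21, Bbc3 in 6, Bcl2l11 in 4 and Bcl2l1 in 1 (library weights) of 21, Bmf in 7 of 20 and Bak1 in 1 of 3. Members called higher numbered 2 with median-of-ratios scaling, quantile normalization and library weights, 3 with that scaling and placeholders as missing (added after seeing the data), and 1 with that scaling and Dot1l-deleted replicate 3 left out. Members called lower numbered 2 with median-of-ratios scaling, with or without placeholders as missing, and with quantile normalization, and 3 with library weights. Leaving out each library in turn gave 0 to 1 higher and 1 to 2 lower. Among the fits with 1 library left out, only that without Dot1l-deleted replicate 3 has its share of all genes given. The other counts with a library left out, here and for the pathway lists below, stand without a background.

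The pathway lists, with 4 genes higher and 14 lower as deposited, gave 7 and 8 with no filter and 19 and 28 with median-of-ratios scaling. With that scaling and Dot1l-deleted replicate 3 left out they gave 18 and 21. The shares of all genes called with no filter and in that last fit are not given here, so those counts stand without a background. Leaving out each library in turn gave 3 to 16 higher, the most without Dot1l-deleted replicate 3, and 9 to 19 lower, the fewest without Control replicate 1 or 2. Over all tested genes, 886 were called higher and 1459 lower as deposited, 2522 and 2943 with median-of-ratios scaling, 2412 and 3196 with quantile normalization, 2531 and 3185 with library weights, and 2042 and 2518 without Dot1l-deleted replicate 3.

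Bax, Bid and Pmaip1 changed sign without passing. With median-of-ratios scaling, alone, with the block or with placeholders as missing, their log2 fold changes were 0.01238, 0.1186 and 0.0729. Library weights gave 0.03313, 0.1075 and 0.1131, quantile normalization 0.1163 for Bid and 0.08711 for Pmaip1, and scaling with Dot1l-deleted replicate 3 left out 0.02428, 0.1437 and 0.08299. Leaving out each library gave -0.2373 to 0.01849 for Bax, -0.1431 to 0.1381 for Bid and -0.1937 to 0.07739 for Pmaip1, the positive values without Dot1l-deleted replicate 3. With 1 added to each FPKM the log2 differences of the ratios of Bcl2 to Mcl1, Bcl2l1 and Bcl2l11 were -1.37, -1.41 and -1.91.

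Replicate numbers gave no sign of pairing in the values as deposited. Deviations of same-numbered libraries correlated across genes at -0.0301, -0.0377 and 0.0128, against -0.078 to 0.11 for libraries of different number. This check cannot exclude pairing, since a shared effect that is small against the spread would look the same. A replicate block gave 0 members higher and 2 lower, Bbc3 passing at an adjusted p of 0.0468. With median-of-ratios scaling the replicate block gave 1 higher and 1 lower. The shares of all genes called in these block fits are not given here, so their counts stand without a background.

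With 3 libraries a group, the calls of Bmf, Bcl2l11, Bbc3 and Bak1 depended on the scaling or on the libraries used. No read counts are given, so genes near or under 1 FPKM, such as the Bcl2a1 genes, have no counting error. The cause of each change of call was not tested.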
